A study of Mus musculus with 19 samples.

Results

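Dendrites of Balb/c and C57BL/6 mouse neurons were compared in pools of the same size. The arrays were chosen by their labels as pools of 100 or of 400 dendrites, which kept 13 of the 19 arrays of the series. Pools of 100 gave 2 Balb/c and 4 C57BL/6 arrays, pools of 400 gave 2 Balb/c and 5 C57BL/6 arrays, and the 6 pools of 200 (1 Balb/c and 5 C57BL/6) were set aside. All cultures were dispersed hippocampal neurons from embryonic day 18 mice of Charles River stock, grown for 14 days and left untreated. Single neurites were cut from their somata with a glass pipette and pooled over many cells, so that an array holds the RNA of a pool and not of 1 neuron or 1 animal. The labels call the arrays biological replicates and do not say whether pools came from separate cultures or embryos. Axons could not be told from dendrites by shape, and the array's probes were designed on C57BL/6 sequence.

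Neurons carry part of their messenger RNA out into the dendrites, where RNA-binding proteins and motors move it along microtubules and local ribosomes translate it near synapses. Abundant messages of neurites usually encode mitochondrial, ribosomal and cytoskeletal proteins, beside the classic localised messages such as Map2, a microtubule-associated protein of dendrites. Balb/c and C57BL/6 are inbred laboratory strains that differ in sequence and behaviour. The comparison asks which genes differ between the strains in the same way at both pool sizes, and which at 1 size. Because the RNA is amplified from few neurites, fewer neurites of a kind and less RNA per neurite cannot be told apart.

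Levels are log2 RMA values per gene (the median of its probe sets), with the median gene of each array set to 0, over 18193 genes. Differences are given in log2 and are positive where Balb/c is higher. A gene is called when its limma p-value, adjusted over all genes by Benjamini-Hochberg, is under 0.05.

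The Balb/c arrays stood apart from the C57BL/6 arrays in more than gene levels, and those values come first. Over genes, the correlation of any pair of the 13 arrays lay between 0.472 and 0.945. C57BL/6 400-1 correlated with the other C57BL/6 arrays at a mean of 0.773, against 0.806 to 0.889 for the rest of its strain, and its closest array was Balb/c 400-2 (r = 0.802). The signal of the 3′ control probe set of beta-actin over its 5′ one, a measure of how far amplified RNA reaches towards the 5′ end, was -0.69, 2.0, -0.21 and 0.98 on the Balb/c arrays. It was 1.65 on C57BL/6 400-1 and 3.48 to 5.57 on the other 8 C57BL/6 arrays. The same measure for Gapdh did not separate the strains in 1 direction. In pools of 100 it was 1.48 and 1.89 in Balb/c, below the 2.94 to 3.32 of C57BL/6. In pools of 400 it was 4.23 and 4.72 in Balb/c, above the 3.15 to 3.46 of C57BL/6. Balb/c 100-2 and Balb/c 400-1 held the fewest distinct values, 1569 and 2052, and were each other's closest array (r = 0.828). All 4 Balb/c columns and C57BL/6 100-1, 100-2 and 400-1 carried values with 14 decimals, and the other 6 C57BL/6 columns values with 9, so the strain comparison is partly a comparison of number formats. Counts with the number format as a block are given below. The part of the other properties in the strain differences was not tested.

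Many genes differed by strain, in both directions. With pool size as a block, 3167 genes (17.4%) were called higher and 3013 (16.6%) lower in Balb/c. The largest differences in each direction among genes called at both pool sizes belonged to Cox5a, a subunit of cytochrome c oxidase, on the lower side and to the uncharacterised 4930503E14Rik on the higher side. With the number format as a further block, 1082 genes were called higher and 1499 lower. On the 7 columns of the long format alone, where 4 Balb/c arrays met 3 C57BL/6 arrays, 56 were called higher and 403 lower.

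Within pools of 100, 1238 genes (6.8%) were called higher and 1567 (8.61%) lower in Balb/c. Within pools of 400, 1146 (6.3%) were called higher and 1604 (8.82%) lower. The arrays of these comparisons do not overlap, although they share 1 estimate of the spread. Of all genes, 77.5% had the same sign of difference in both sizes, and the differences correlated across genes at r = 0.784 (Spearman's rho = 0.738), where genes are not independent replicates. Among genes called higher in pools of 100, 94.8% were higher in pools of 400 too, and among those called lower, 98.1% were lower. Taken from pools of 400, the shares were 96.8% and 97.7%.

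**Figure D1:**
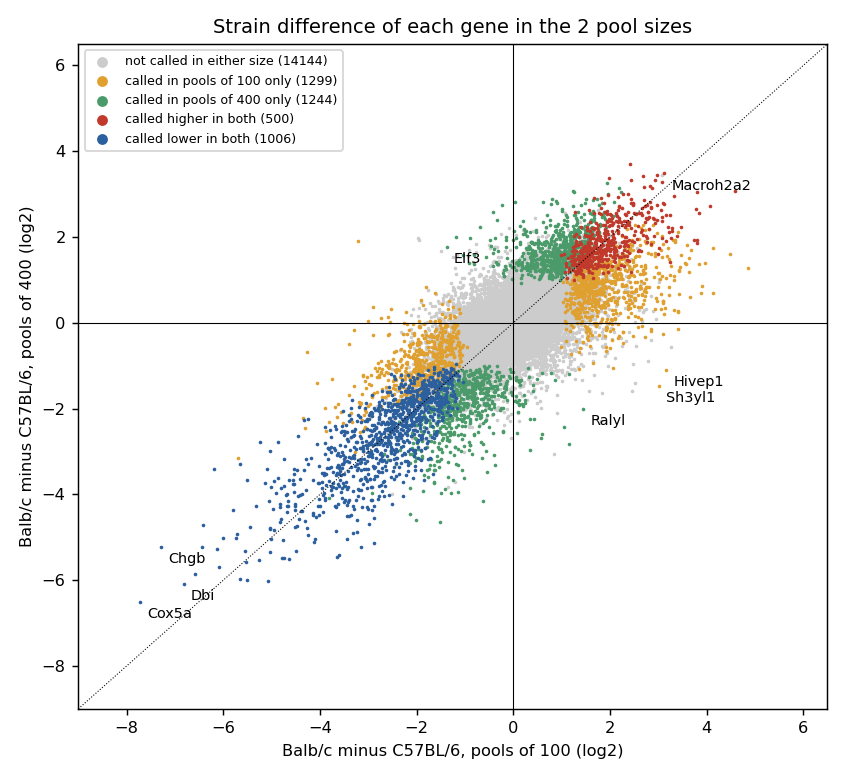
Each point is 1 of 18193 genes, with its Balb/c minus C57BL/6 difference (log2) in pools of 100 on the horizontal and in pools of 400 on the vertical axis, coloured by the size in which it was called. The dotted line marks equal differences. The 1006 genes called lower in both reach to -7.09 in the fit over both sizes, against 3.80 for the 500 called higher, and no gene was called with opposite signs.

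Called in both sizes were 500 genes higher (2.75%) and 1006 lower (5.53%) in Balb/c, 1506 in all, and 0 with opposite signs. The median difference with pool size as a block was 1.82 for the genes higher in both and -2.47 for those lower in both. The levels of these genes in each strain are given as values, and follow in part from the choice of genes by their difference. In C57BL/6, 96.8% of the genes lower in both were above the array median, at a median level of 2.11, and in Balb/c 34.0% were, at -0.42. Of the genes higher in both, 40.6% were above the array median in C57BL/6 (median level -0.20) and 94.0% in Balb/c (1.75). Without the test, 1611 genes (8.86%) were higher and 1612 (8.86%) lower on every Balb/c array than on every C57BL/6 array of the same size, in both sizes.

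The count called in both sizes depended on single libraries. Without Balb/c 400-1 it was 368, without Balb/c 100-2 it was 768, and without C57BL/6 400-1 it rose to 2288. With the number format as a block, 475 of the 500 and 986 of the 1006 were called over both sizes together. On the long-format columns 47 and 381 were. Among the C57BL/6 pools of 400 only array 400-1 had the long format, so in both settings the pools of 400 leaned on that array. The count in both sizes apart is therefore not given for the long-format columns. Both settings kept the 4 Balb/c arrays on which the genes were chosen, so the direction of these genes was fixed by the choice.

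Genes lower in Balb/c in both sizes included mitochondrial, secretory and cytoskeletal messages at the top of the C57BL/6 range. Cox5a was at -3.73 and -1.50 on the Balb/c arrays of 100 and at -3.44 and 1.18 on those of 400. On the C57BL/6 arrays it was at 5.6, 3.77, 5.80 and 5.26 in pools of 100 and at 3.82, 6.4, 5.76, 4.83 and 6.06 in pools of 400. The strains did not overlap in either size, Balb/c 400-2 was the highest of its strain, and the difference was -7.09 ± 0.72 (SE, adjusted p = 7.68e-06).

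Dbi, which encodes the acyl-CoA-binding protein, was at -0.82, -1.66, -1.79 and -1.50 on the Balb/c arrays 100-1, 100-2, 400-1 and 400-2. The C57BL/6 arrays ran from 3.87 to 7.09 in pools of 100 and from 4.08 to 5.07 in pools of 400. Here the 4 Balb/c arrays lay within 0.97 of each other, far below every C57BL/6 array, with a difference of -6.44 ± 0.50 (adjusted p = 1.21e-06).

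Chgb encodes chromogranin B, a protein of secretory granules. It was at 1.14 and -2.05 on the Balb/c arrays of 100 and at -1.36 and 3.54 on those of 400, against 5.97 to 7.33 and 5.63 to 7.25 in C57BL/6. Both strains kept apart, but the Balb/c arrays were spread over 5.59, and without 1 library the call in both sizes could be lost (largest adjusted p 0.121).

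Slc25a4, the ATP/ADP exchanger of the inner mitochondrial membrane, was at -1.32, -0.82, -2.10 and 1.82 in Balb/c and between 4.69 and 6.34 in C57BL/6. Stmn2, a microtubule-destabilising protein of growing neurites, was at -1.01, -1.82, -1.64 and -0.57 in Balb/c. Its lowest C57BL/6 value was 2.33 on array 400-1, with 4.25 to 5.92 on the other 8, and its difference was -5.89 ± 0.49. The remaining genes of the largest 8 were the glycosyltransferase B3galnt1 (-5.82), the GABA-A receptor subunit Gabra5 (-5.81) and the nucleoside diphosphate kinase Nme2 (-5.76). Gabra5 came closest to an overlap, with Balb/c 400-2 at 4.06 and C57BL/6 400-1 at 5.01. Chgb was not alone among these 8 in losing its call in both sizes when a Balb/c array was left out.

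The 8 genes with the largest differences on the higher side had smaller differences. Macroh2a2, a histone variant, was at 3.0, 4.40, 4.56 and 3.30 on the Balb/c arrays. In C57BL/6 it ran from 0.38 to 0.98 in pools of 100 and from -0.63 to 0.74 in pools of 400 apart from array 400-1, which was at 1.91. No Balb/c array reached down to a C57BL/6 one, and the difference was 3.31 ± 0.41 (adjusted p = 3.69e-05).

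Gal, the precursor of the neuropeptide galanin, was at 2.39 and 4.04 on the Balb/c arrays of 100 and at 1.85 and 2.1 on those of 400. It lay below the array median on all C57BL/6 arrays but 400-1, which was at 1.15, and the difference was 3.37 ± 0.48. Aldoart1, an aldolase A retrogene, was dim in both strains: it lay between -1.51 and 0.47 in Balb/c and between -4.21 and -2.02 in C57BL/6. The others were 4930503E14Rik (3.80), Rdh16f2 (3.41), Gsdmc2 (3.19), 9030612E09Rik (3.18) and Psg28 (3.18), each measured by 1 probe set. For 5 of these 8 genes, C57BL/6 400-1 had the highest value among the C57BL/6 pools of 400. Each of the 8 lost its call in both sizes for at least 1 of the 13 single arrays left out (largest adjusted p 0.0642 to 0.319) and kept it for 8 to 12 of them. Without Balb/c 400-1 there were 2 of the 8 called in both sizes, without Balb/c 100-2 there were 3 and without Balb/c 400-2 there were 5, against 7 or 8 without any other array.

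**Figure D2:**
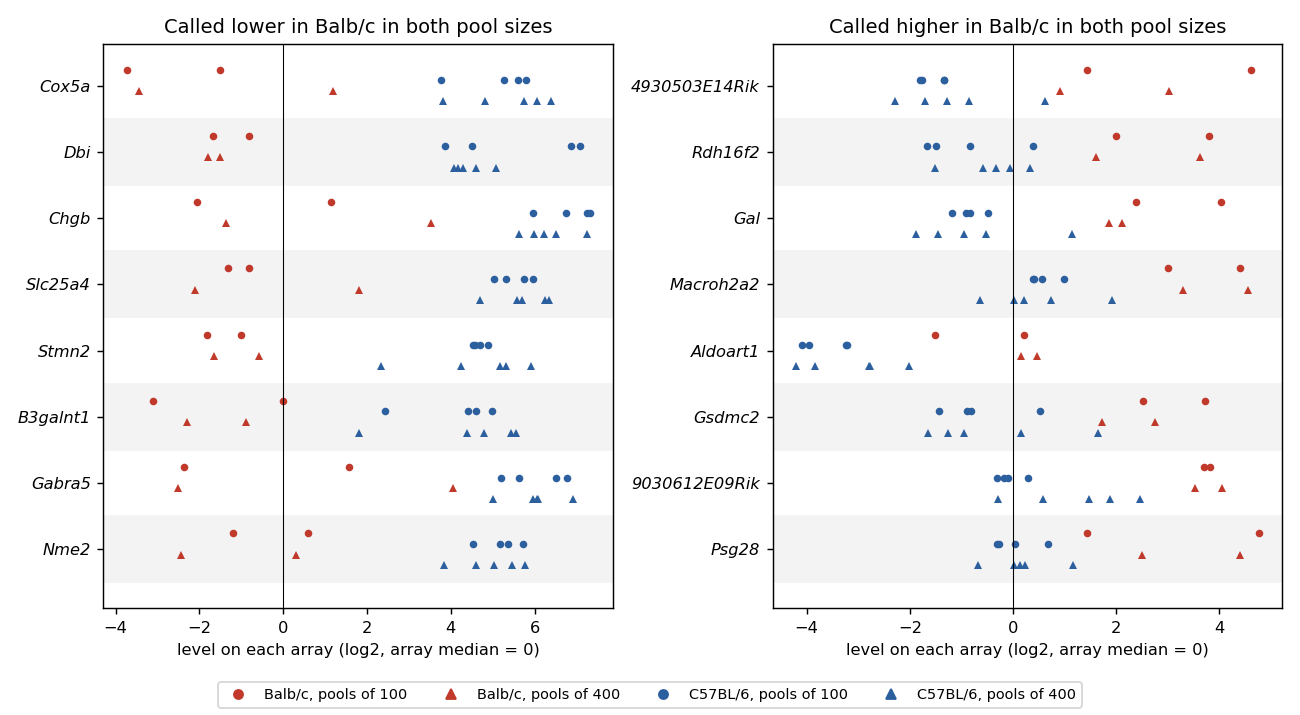
Log2 level on each of the 13 arrays (array median = 0) of the 8 genes with the largest difference in each direction among those called in both pool sizes; red is Balb/c, blue C57BL/6, circles are pools of 100 and triangles pools of 400. Every Balb/c value lies outside the C57BL/6 values of its pool size. The C57BL/6 triangle nearest to Balb/c is array 400-1 in 13 of the 16 genes.

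Respiratory chain genes were widely lower in Balb/c. Complex I, the entry point of the chain, had 35 genes measured, of which 29 were called lower and 1 higher over both sizes, and 21 were called lower in both sizes (60.0%, against 5.53% of all genes, the largest such share among the 33 lists). For the counts over both sizes in this and the following lists, 16.6% of all genes lower and 17.4% higher are the background. Its median difference was -2.68 in pools of 100 and -2.57 in pools of 400, beside 0.06 and 0.08 for all genes. The mean of the list was 0.09 and -0.07 on the Balb/c arrays of 100 and -0.25 and 0.67 on those of 400, against 2.1 to 2.86 and 2.01 to 3.20 in C57BL/6. The list means of the strains did not overlap in either size.

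Ndufc1, a complex I subunit, was at -1.87, -1.03, -1.49 and 0.25 on the Balb/c arrays and between 2.61 and 5.65 in C57BL/6, a difference of -5.69 ± 0.52 (adjusted p = 3.52e-06). Ndufa2 (-4.90) and Ndufb6 (-4.54) were lower in both sizes too. Of complexes II to IV, 16 of 24 genes were called lower and 1 higher, 13 of them lower in both sizes, and Uqcrc2 of complex III differed by -3.62 ± 0.30. ATP synthase had 14 of 16 genes called lower, 9 in both sizes and 0 higher. Its inhibitor Atpif1 (-5.37) and the subunits Atp5j (-4.89) and Atp5a1 (-3.20) were among them, although 1 of the 3 probe sets of Atpif1 differed by 0.32 in the other direction.

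Genes of fuel metabolism were called lower more often than higher. Glycolysis had 9 of 13 genes lower and 1 higher, 6 lower in both sizes, with Ldhb, a lactate dehydrogenase, at -3.36 and Pgam1 at -3.90. Ldhb had 1 of 4 probe sets at 0.80, and with its brightest one in place of the median the difference was 0.89. In that setting each array was also centred anew, on the median of the brightest probe sets of all genes. The tricarboxylic acid cycle had 7 of 17 lower and 1 higher, 4 lower in both sizes, among them Fh1 (-4.13) and Mdh2 (-3.03). Its median difference was -0.67.

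Genes of protein synthesis and turnover were lower as well. Cytosolic ribosomal proteins had 34 of 44 genes lower and 1 higher, 25 of them lower in both sizes, and medians of -1.81 in pools of 100 and -2.50 in pools of 400. Rps18, a protein of the small subunit, was at 0.57, -0.14, -0.67 and -0.01 in Balb/c and at 2.69 to 4.08 in C57BL/6 (-3.63 ± 0.28, adjusted p = 1.19e-06). Of its 6 probe sets, 1 differed by 1.33 in the other direction. Rps9 (-4.59) had 1 of 3 probe sets at 1.86 and changed sign when shared probe sets were left out. Signal of ribosomal genes and of their many pseudogenes may be shared by such probes.

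Translation factors had 21 of 42 genes lower and 5 higher, with Eef1a1, the elongation factor that brings tRNAs to the ribosome, at -4.25 ± 0.38 and Eif3f at -3.99. The proteasome, which degrades tagged proteins, had 18 of 31 lower and 0 higher, led by Psmd14 (-5.50), and its median was -1.07 in pools of 100 and -1.90 in pools of 400. Chaperones had 19 of 31 lower and 1 higher, among them the DnaJ protein Dnaja1 (-4.92), the chaperonin subunit Tcp1 (-4.38) and Hspa8 (-3.82). In both sizes, 12 translation factors, 14 proteasome genes and 15 chaperones were called lower.

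Cytoskeletal and motor genes were called lower more often than higher. Of 35 microtubule genes, 19 were lower and 2 higher, 12 lower in both sizes, with a median difference of -1.0. Stmn4 and Tuba4a stood at -5.43 and -2.62, although 1 of the 3 probe sets of Tuba4a differed by 2.69. Actin genes had 18 of 33 lower and 2 higher and a median of -1.08, with Actr3, a subunit of the actin-nucleating Arp2/3 complex, at -4.27 and the cytoplasmic actin Actg1 at -4.17. Kinesin and dynein motors had 14 of 29 lower and 2 higher, led by the dynactin subunit Dctn6 (-4.58). Neurofilament and axonal messages had 10 of 17 lower and 2 higher, with Thy1 at -3.59 and Nefl at -3.05.

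RNA transport proteins had 17 of 43 lower and 4 higher, 6 and 1 of them in both sizes. Hnrnpa2b1, which binds transport elements of localised messages, was at -0.63, -0.47, -0.74 and -1.18 in Balb/c and at 2.53 to 4.50 in C57BL/6, a difference of -4.36 ± 0.33. The known dendritic messages, whose presence in dendrites is established in the field, had 16 of 30 lower and 4 higher, 8 lower in both sizes, and a median of -1.0. Map2 was at -0.85, 0.22, -1.03 and -0.69 in Balb/c and at 0.70 to 1.80 in C57BL/6 (-1.83 ± 0.27, adjusted p = 0.000144). Its 4 probe sets were all lower, from -2.71 to -0.07. With the brightest of them in place of the median, and the arrays centred anew, the difference was 0.03. That change of sign came with the new centring and not from a probe set that was higher. Kif5c, a kinesin heavy chain, differed by -3.51, with 1 of its 4 probe sets at 1.10.

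Synaptic lists differed among themselves. Postsynaptic scaffolds and signalling had 9 of 37 lower and 1 higher with a median of -0.10, and glutamate receptors 6 of 24 lower and 1 higher with -0.26. Gria2, an AMPA receptor subunit, was called lower in both sizes (-1.67 ± 0.26), but 1 of its 3 probe sets differed by 1.34. GABA receptors had 4 lower and 4 higher of 17, and potassium channels 8 lower and 7 higher of 37. Of the latter, Kcnma1, the large-conductance calcium-activated channel, differed by -4.32 and Kcnj6 by 1.40, both in both sizes. Kcnma1 had 4 of 5 probe sets lower and the other at 0.16. Its brightest one, with the arrays centred anew, gave 0.26. Presynaptic genes had 12 of 34 lower and 2 higher with a median of -0.65, led by the vesicle protein Rab3b (-4.73). Granins and neuropeptides had 11 of 26 lower and 1, Gal, higher, with a median of -0.88.

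**Figure D3:**
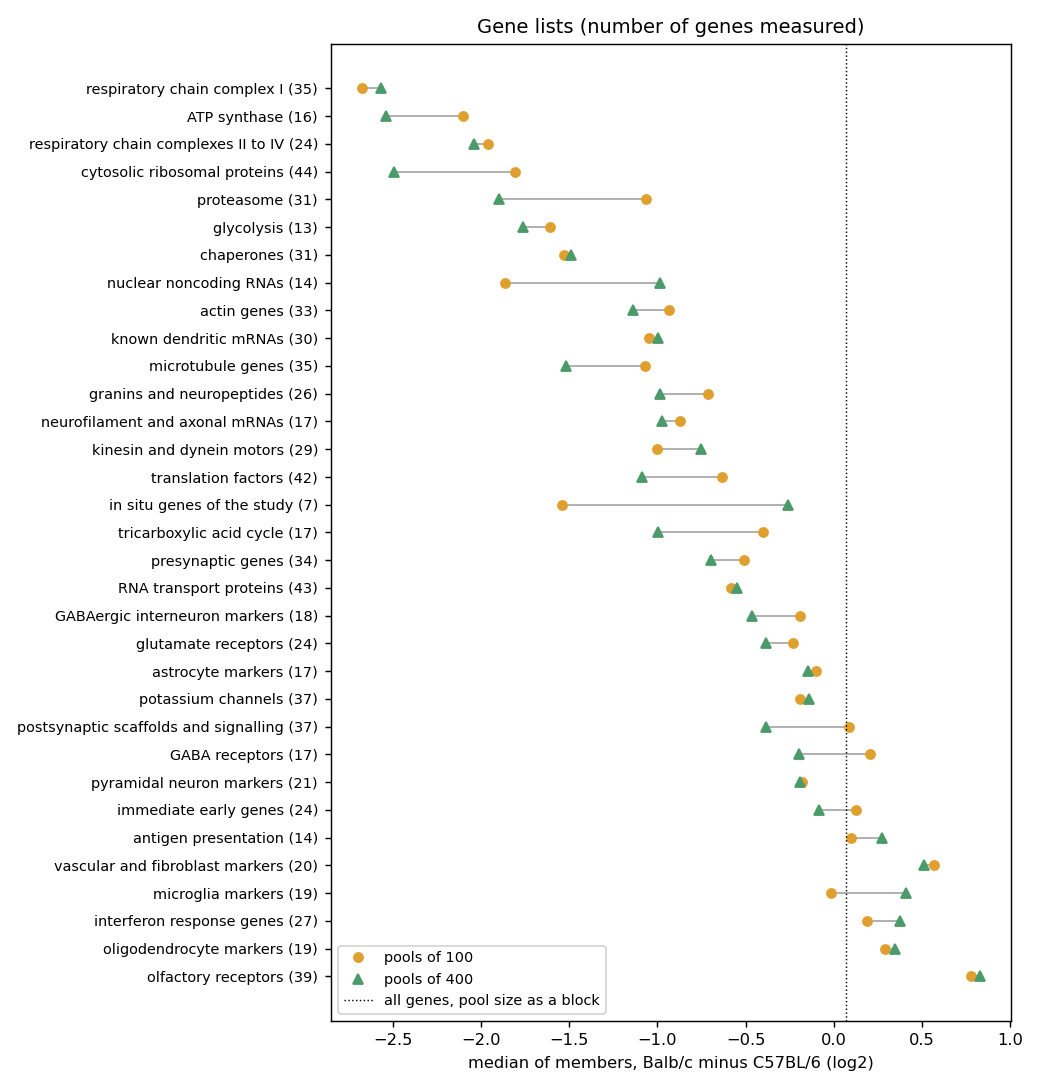
Median Balb/c minus C57BL/6 difference (log2) of each gene list, with the number of genes measured, in pools of 100 (circles) and of 400 (triangles); the dotted line is the median of all genes with pool size as a block (0.07). Complex I lies at -2.68 and -2.57, and the olfactory receptors at 0.78 and 0.83.

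Nuclear noncoding RNAs, which are retained near the chromatin and serve as a sign of soma RNA, were lower in Balb/c: 8 of 14 were called lower and 1 higher, 5 lower in both sizes. Malat1 was at -1.02, 0.62, -0.79 and 0.41 in Balb/c and at 1.78 to 4.54 in C57BL/6 (-3.36 ± 0.43). Of its 7 probe sets, 5 were lower and 2 higher, the highest at 1.54. Meg3 differed by -3.02 ± 0.40. The mean of the list was 0.16 to 0.40 on the 4 Balb/c arrays and 1.30 to 2.32 on the 9 C57BL/6 arrays, without overlap. The part of soma RNA in the strain differences was not tested.

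Markers of the cell types a hippocampal culture can hold came next. Pyramidal neuron markers had 6 of 21 lower and 2 higher and a median of -0.02, and the thyroid hormone-binding protein Crym was at -5.13 ± 0.38. Their mean was -0.06 to 0.40 in Balb/c and 0.45 to 1.31 in C57BL/6. GABAergic interneuron markers had 3 of 18 lower and 4 higher. Gad1, which makes GABA, was above the array median on all 13 arrays and lower in Balb/c (-2.89 ± 0.33), while Dlx2 was higher (1.64). Astrocyte markers had 3 of 17 lower and 1 higher. Gja1, the gap junction protein of astrocytes, was at -1.78, -2.0, -1.15 and -1.10 in Balb/c and at -0.25 to 2.78 in C57BL/6, highest on array 400-1. Slc39a12 of the same list went the other way, with its 2 probe sets higher in Balb/c by 1.21 and 2.05.

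Of the other cell type lists, oligodendrocyte markers had 4 of 19 higher and 1 lower, microglia markers 4 of 19 higher and 2 lower, and vascular and fibroblast markers 7 of 20 higher and 2 lower, with 0 called in both sizes in these 3 lists. The shares higher for oligodendrocyte and microglia markers (21.1% each) were near the 17.4% of all genes. Of the 3 lists, 1, 2 and 2 genes were called higher once the number format was a block, beside 1082 of all 18193 genes. On the long-format columns 0, 0 and 1 were, beside 56 of all genes. The mean of the microglia list was 0.13 to 0.34 in Balb/c and -0.27 to 0.29 in C57BL/6, and that of the vascular list was 0.15 to 0.28 and -0.43 to 0.04. The pyramidal mean exceeded the array median on 12 of the 13 arrays and the oligodendrocyte mean on 2, both of Balb/c. The part of other cell types was not tested.

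Antigen presentation had 5 of 14 genes higher and 1 lower, and interferon response genes had 5 of 27 higher (18.5%, near the share of all genes) and 2 lower. With the number format as a block the lists held 1 higher and 1 lower, and 2 higher and 1 lower. Of all 18193 genes, 1082 were called higher and 1499 lower in that setting. Psmb9, a subunit of the immunoproteasome, was at 1.37, 2.20, 3.08 and 1.31 in Balb/c and below the array median on all 9 C57BL/6 arrays, a difference of 2.72 ± 0.32 (adjusted p = 2.40e-05) that was nearly the same in pools of 100 (2.73) and of 400 (2.71). The interferon-induced Rtp4 differed by 1.77 in both sizes together. H2-D1, a class I histocompatibility gene, was called higher in pools of 100, with 7 of 9 probe sets higher and 2 lower. Alleles of that locus differ between the strains, and the probes follow C57BL/6.

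Olfactory receptors, which neurites are not known for, were taken up after their values were seen. Of the 39 genes with that symbol, 19 were called higher and 0 lower over both sizes, and 2 higher in both sizes. Their mean was 0.33 to 0.60 in Balb/c and -0.44 to 0.15 in C57BL/6. With the number format as a block 2 were called higher, beside 1082 of all 18193 genes. On the long-format columns 0 were, beside 56 of all genes.

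Of the genes the study examined by in situ hybridization, 7 were measured here. H2az1, a histone variant, was at -1.75, -3.07, -3.04 and -1.56 in Balb/c and at 0.97 to 4.29 in C57BL/6, a difference of -5.15 ± 0.46. Olfm1 (-4.46) and Hnrnpk (-3.20) were lower in both sizes too, although 1 of the 4 probe sets of Hnrnpk differed by 1.47. Zfp410 (-0.15) and Commd3 (-0.13) were not called. Rps6 was called higher in pools of 100 (1.42), where its 2 probe sets differed by -0.10 and 2.13 over both sizes. Clasrp, a splicing regulator, was called lower in pools of 100 (-1.55) and stood at 0.04 in pools of 400.

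The study's table of synaptic plasticity genes ranks Emc2 (there Ttc35), Sod1 and Naca high in C57BL/6 and low in Balb/c. That ranking used dendrite arrays of these same strains, so the direction of these genes here follows from the choice. Emc2, a subunit of a membrane protein complex of the endoplasmic reticulum, was lower in both sizes (-5.20 ± 0.39). So was the superoxide dismutase Sod1 (-2.67 ± 0.53), with 1 of its 5 probe sets at 1.26. Naca, which binds nascent chains at the ribosome, was at 0.41, 1.42, -0.81 and -0.93 in Balb/c and at 2.62 to 4.74 on 8 C57BL/6 arrays, but at -2.10 on C57BL/6 400-1. It was called over both sizes (-3.27 ± 0.96, adjusted p = 0.0164) and in neither size apart.

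Genes called in 1 pool size did not pass the test of a difference between sizes. Called in pools of 100 alone were 1299 genes (7.14%), 738 higher and 561 lower, and in pools of 400 alone 1244 (6.84%), 646 higher and 598 lower. The limma contrast of the strain difference in pools of 400 minus that in pools of 100 was called for 0 genes (0.0%), with 866 genes at an unadjusted p under 0.05 and a smallest adjusted p of 0.210, and the ordinary t-test called 0. Most of these genes had the same sign in the size that did not call them: 674 of 738 and 531 of 561 for pools of 100, and 609 of 646 and 561 of 598 for pools of 400. Genes called higher or lower in pools of 100 alone had median differences of 1.78 and -1.86 there and of 0.87 and -0.95 in pools of 400. Genes called higher or lower in pools of 400 alone had medians of 1.62 and -1.89 there and of 0.91 and -1.02 in pools of 100.

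That count of 0 rested on single Balb/c arrays. Without Balb/c 100-1 the difference between sizes was called for 117 genes and without Balb/c 100-2 for 169, each fit then holding 1 Balb/c array of 100 that is assumed to vary like the other groups. Without Balb/c 100-2 and 400-1 together it was called for 143.

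The genes with the smallest unadjusted p of that contrast are given as values. Hivep1, a zinc finger factor, was at 1.75 and 3.71 on the Balb/c arrays of 100 and at -0.59, -0.07, -0.44 and -0.64 on the C57BL/6 ones. In pools of 400 it was at -0.73 and -1.84 in Balb/c and between -0.37 and 0.06 in C57BL/6. The strains were apart in opposite directions, 3.17 and -1.10, and the change between sizes was -4.27 ± 0.66 (adjusted p = 0.210).

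Sh3yl1 was at 4.29 and 3.62 on the Balb/c arrays of 100, above the C57BL/6 values of 0.62 to 1.30. In pools of 400 it was at 0.07 and -0.31, within the C57BL/6 range of -0.45 to 2.34, and the lowest value of that range was array 400-1. The chemokine Ccl4 was at 5.76 and 5.49 against 1.42 to 2.24 in pools of 100, and at 3.58 and 2.60 against 2.09 to 2.93 in pools of 400. Here the difference was positive in both sizes, 3.66 and 0.60. Dnajb3, a DnaJ-domain gene, went from 3.09 to -0.26.

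Of the genes called in pools of 400 alone, Elf3 and Rap1gap were higher there (1.77 and 2.0) and lower in pools of 100 (-1.38 and -1.18, not called). Elf3 was at 4.01 and 3.04 on the Balb/c arrays of 400 and at 1.04 to 2.53 on the C57BL/6 ones, and at 1.85 and 0.98 against 2.34 to 3.01 in pools of 100. Ralyl was at -0.24 and -0.26 in Balb/c pools of 400 against 1.13 to 2.31, and Slc35a5 at -1.98 and -2.32 against -1.39 to -0.45. With pool size as a block Ralyl differed by -0.34. The 5 probe sets of Slc35a5 were then all higher in Balb/c, by 0.26 to 1.14. The spread between the Balb/c arrays of a size, each a pair, is the limit on all of these values.

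**Figure D4:**
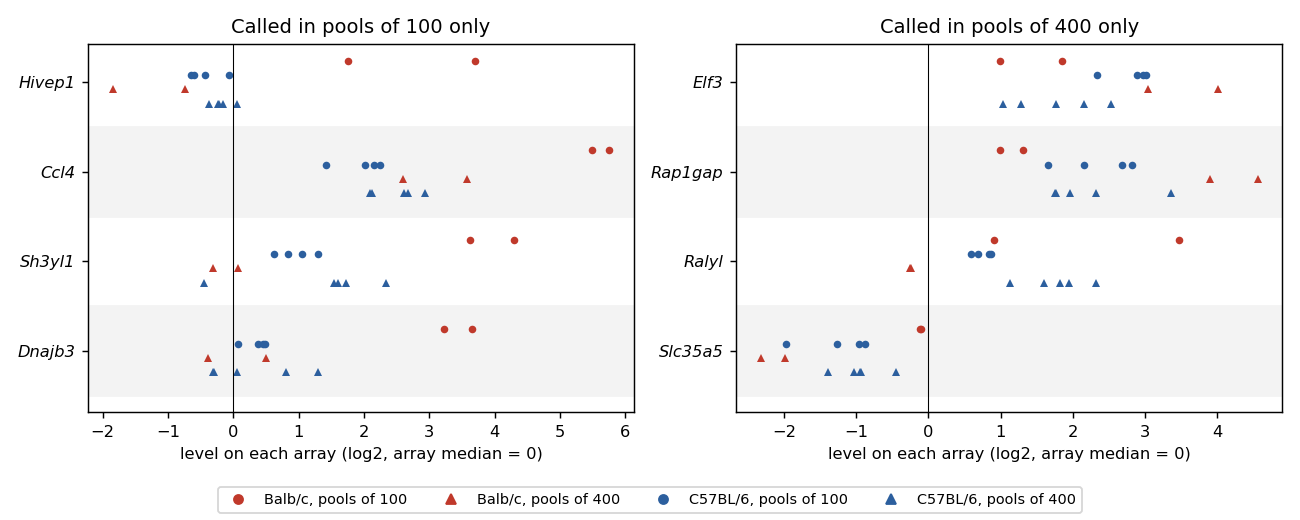
Log2 level on each of the 13 arrays (array median = 0) of the genes with the smallest p of the difference between sizes among those called in pools of 100 only (left) and in pools of 400 only (right); red is Balb/c, blue C57BL/6, circles are pools of 100 and triangles pools of 400. Hivep1 is at 1.75 and 3.71 in Balb/c pools of 100 and at -0.73 and -1.84 in those of 400; no difference between sizes was called.

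Counts of list members called in 1 size are given as values, beside 7.14% of all genes for pools of 100 only and 6.84% for pools of 400 only. Microtubule genes had 6 of 35 called in pools of 400 only and 0 in pools of 100 only, all 6 lower, and of 42 translation factors there were 6 and 3. Complex I had 4 of 35 and 3, and chaperones 2 of 31 and 2. Nuclear noncoding RNAs had 0 in pools of 400 only and 3 in pools of 100 only, with medians of -0.99 and -1.86. At an unadjusted p under 0.05, the difference between sizes held 4 of 35 microtubule genes, 1 of 42 translation factors and 2 of 14 noncoding RNAs, beside 4.76% of all genes, and none was called.

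The pools of 200 took no part in choosing the genes called in both sizes. Their 1 Balb/c array was above all 5 C57BL/6 arrays of 200 for 3704 genes (20.4%) and below them for 3427 (18.8%). Of the 500 genes higher in both other sizes it was above all 5 for 20.2%, and of the 1006 genes lower in both it was below all 5 for 12.9%. It had the same sign against the C57BL/6 mean for 64.4% and 66.5% of them, where 51.5% and 48.5% of all genes were higher and lower. The median difference of the genes lower in both was -0.34 in pools of 200, against -2.46 in pools of 100 and -2.45 in pools of 400.

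On the gene lists the Balb/c pool of 200 mostly sat among the C57BL/6 pools: its mean was within the range of the 5 C57BL/6 arrays of 200 for 28 of the 33 lists, whereas in pools of 100 and 400 every Balb/c mean was below every C57BL/6 mean of its size for 22. Complex I had a mean of 2.02 on it and of 1.15 to 3.30 on the C57BL/6 arrays of 200, and the ribosomal proteins 2.24 against 1.26 to 3.08. Of the 16 genes with the largest differences named above, 12 lay within the C57BL/6 range of 200 on it. Cox5a was at 3.29 against 2.67 to 5.66, and Macroh2a2 at 1.78 against 0.20 to 3.62. The other 4 lay beyond all 5 C57BL/6 arrays in the same direction as in the other sizes. Gabra5 was at 4.43 against 5.04 to 6.75 and B3galnt1 at 0.76 against 0.81 to 5.30, both lower, and 9030612E09Rik was at 3.09 against 0.59 to 2.38 and Gsdmc2 at 1.16 against -1.18 to 0.88, both higher. Known dendritic messages (0.96 against 1.05 to 1.67), granins and neuropeptides, and interneuron markers were below all 5 C57BL/6 means. Astrocyte markers (0.48 against -0.39 to 0.18) and immediate early genes were above them. With 1 Balb/c array of that size there is no replicate check. The lowest C57BL/6 array of 200 was 200-1 on 20 of the 33 lists. Like Balb/c 200-1 it carried values with 14 decimals, and the other C57BL/6 pools of 200 carried 9. For complex I the others ran from 2.25 to 3.30, above Balb/c 200-1. The same held for ATP synthase (1.74, the others from 2.22) and the ribosomal proteins (2.24, the others from 2.44). It held for the proteasome too (0.91, the others from 1.32). On these lists Balb/c 200-1 was within the C57BL/6 range through 200-1 alone. For glycolysis Balb/c 200-1 (2.64) lay among the others (1.93 to 3.2). So it did for complexes II to IV (2.69, the others 2.40 to 3.54) and microtubule genes (2.30, the others 2.01 to 2.45). The lists of either kind among the 28 were not counted.

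**Figure D5:**
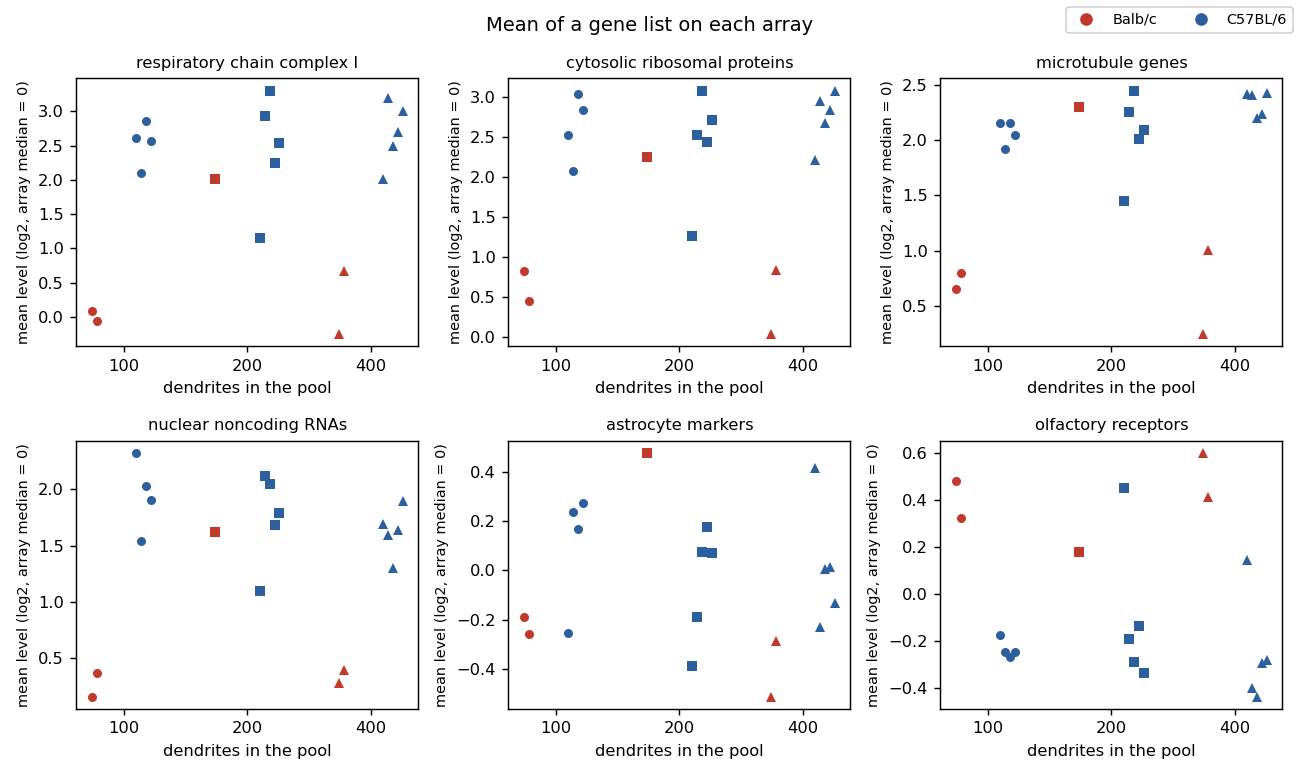
Mean log2 level (array median = 0) of 6 gene lists on each of the 19 arrays, by pool size; red is Balb/c and blue C57BL/6, and each panel has its own vertical scale. In pools of 100 and 400 the Balb/c means of complex I are at most 0.67 and the C57BL/6 means at least 2.01, while the Balb/c pool of 200 is at 2.02.

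Many genes are measured by several probe sets, and these did not always go together. Beside the cases given above, Hspa8, Hnrnpa2b1 and Meg3 each had 1 probe set higher (0.15, 0.27 and 0.33), and Kcnj6 had 1 lower (-0.21). Of the 568 genes lower in both sizes with several probe sets, 69.4% had every probe set lower, and of the 162 genes higher in both, 77.2% had every one higher. Over the 9010 genes with several probe sets, 17.7% had every one lower and 20.9% every one higher. The members were chosen on the median of the same probe sets, so these shares describe them. With the brightest probe set in place of the median, 722 of the 1006 and 406 of the 500 were called the same way in both sizes.

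Promoters of the genes on either side are described by their letters, which the arrays do not measure. They were taken as the 250 bases before and 50 after the first listed start per gene in RefSeq (GRCm38.p6), without those of 1 chromosome, which were not used here. Such windows were found for 832 of the 1006 genes lower in both sizes and for 384 of the 500 higher in both. Genes lower in both had a median of 22 CpG pairs in the window, those higher in both 13.5, all genes 17 and all genes above the array median 19. The ETS core CCGGAAG, read on both strands, was in 20.6% of the promoters of genes lower in both and in 9.12% of those higher in both, beside 15.0% for genes above the array median and 13.8% for all genes. The core of the NRF-1 site, GCGCATGC, was in 7.33% and 3.65%, beside 4.55% and 4.27%. TATAAA was in 6.49% and 11.2%, beside 8.90% and 9.87%, and CCAAT in 39.1% and 35.9%, beside 37.7% and 38.2%. None of these motifs contains another, and a match is a description of the letters and not of a bound site.

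Shown are 4 promoters, 3 of genes lower and 1 of a gene higher in Balb/c in both sizes, with matches to the 4 motifs in capitals and each read 5′ to 3′ on the gene's strand. That of Slc25a4 (chr8:46211013-46211312, minus strand) holds the ETS core and CCAAT. That of Actr3 (chr1:125435678-125435977, minus strand) holds the NRF-1 core and the ETS core, and that of the complex I gene Ndufb6 (chr4:40279372-40279671, minus strand) the ETS core. That of Rdh16f2 (chr10:127866226-127866525, plus strand) holds TATAAA and CCAAT, and 1 CpG pair, against 25, 34 and 17 in the others.
Slc25a4: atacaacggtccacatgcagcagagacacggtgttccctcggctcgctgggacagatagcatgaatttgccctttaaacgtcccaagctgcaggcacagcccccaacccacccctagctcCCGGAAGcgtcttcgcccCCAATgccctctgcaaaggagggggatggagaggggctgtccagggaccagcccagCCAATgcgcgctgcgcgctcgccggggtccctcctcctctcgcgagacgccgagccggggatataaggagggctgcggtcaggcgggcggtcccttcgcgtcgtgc
Actr3: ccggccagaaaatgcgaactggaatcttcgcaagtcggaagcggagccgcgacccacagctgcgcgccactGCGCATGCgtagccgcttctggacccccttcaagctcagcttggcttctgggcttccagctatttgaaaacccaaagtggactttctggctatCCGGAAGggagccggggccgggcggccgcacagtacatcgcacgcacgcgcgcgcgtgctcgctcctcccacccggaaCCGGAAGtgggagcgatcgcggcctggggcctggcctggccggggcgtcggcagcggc
Ndufb6: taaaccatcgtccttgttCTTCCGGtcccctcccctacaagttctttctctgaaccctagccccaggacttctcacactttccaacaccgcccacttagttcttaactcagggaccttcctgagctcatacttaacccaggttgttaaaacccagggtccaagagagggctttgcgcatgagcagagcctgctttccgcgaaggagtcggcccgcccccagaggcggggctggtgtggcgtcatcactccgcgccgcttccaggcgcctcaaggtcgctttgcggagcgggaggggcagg
Rdh16f2: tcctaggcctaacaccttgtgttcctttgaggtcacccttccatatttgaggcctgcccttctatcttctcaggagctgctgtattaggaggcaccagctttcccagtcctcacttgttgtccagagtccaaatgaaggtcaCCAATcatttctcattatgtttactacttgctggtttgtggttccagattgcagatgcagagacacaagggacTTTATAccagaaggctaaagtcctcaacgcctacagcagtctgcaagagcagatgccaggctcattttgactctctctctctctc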

How the data were processed

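Dendrite RNA was amplified in 2 rounds plus a final labelling round and hybridised to Affymetrix mouse genome arrays by the authors, 1 pool per array. The deposited values are log2 RMA values of 45101 probe sets (RMA 2.0, per the submitters' processing notes, over the upper decile of probes), and the median centring and range scaling named in the methods are not in them. Arrays give no read depth, so precision is limited by their number, with 2 Balb/c arrays per pool size. Control probe sets (64) were left out. Probe sets with 1 symbol (34945) were joined to 18193 genes by their median, while 932 with several symbols and 9160 with none were not used. Each array was centred on the median of its genes, a choice the methods name.

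Groups came from the titles. limma 3.58.1 in R 4.3.3 was fitted with strain and pool size (lmFit, eBayes), and, for the sizes apart and their difference, with 1 mean for each of the 4 groups. p-values were adjusted by Benjamini-Hochberg at 0.05 over all genes and measure the spread between pools, which may be technical. The fits were tested on simulated data. Members and gene lists were chosen with earlier results of these data known. Named are the 8 largest differences per direction among genes called the same way in both sizes, up to 4 genes called in 1 size with the smallest p of the difference between sizes, up to 3 called genes per list with the smallest p, and the in situ genes with Sod1, Emc2 and Naca. A result is also given after leaving out single arrays, or under other scalings, probe set choices and tests. The methods' t-test was run at 0.05 and at the study's 0.001.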

Additional observations from a re-analysis of the deposited data

Results flagged for a closer look

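In 7 of the 118 groups of 4 or 5 arrays examined, over named genes and list means, 1 array lay far from the others by Dixon's 95% criterion; chance flags about 1 in 20 groups. C57BL/6 100-2 was low among pools of 100 for the mean of respiratory chain complexes II to IV (2.09, the others at 2.94 to 3.08), of translation factors (0.765, the others at 1.20 to 1.27) and of kinesin and dynein motors (1.10, the others at 1.61 to 1.68). C57BL/6 400-1 was low among pools of 400 for Sh3yl1 (-0.454, the others at 1.54 to 2.34), translation factors (0.908, the others at 1.42 to 1.62) and the tricarboxylic acid cycle (0.703, the others at 1.13 to 1.29). C57BL/6 400-3 was high for antigen presentation (0.962, the others at 0.669 to 0.748).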

How the results depend on the processing

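Counts are of genes called with pool size as a block (6180 in the main analysis), in pools of 100 (2805), in pools of 400 (2750), in both sizes the same way (1506) and for the difference between sizes (0). With the number format as a block they were 2581, 1418, 595, 407 and 0. On the long-format columns, with fewer arrays, they were 459 with the block and 44 in pools of 100. The other counts are not given there, because C57BL/6 400-1 was the only C57BL/6 pool of 400 in that format. With array weights per strain, pools of 100, pools of 400 and both sizes gave 1294, 1163 and 617. Only genes above the array median gave 3925 with the block, with 9375 genes tested. The replicate block, for numbers that the labels share but that did not pair the samples (correlation of deviations -0.07 to 0.02), gave 2430, 528, 333, 208 and 0. Without Balb/c 100-2 and 400-1 they were 3124, 1633, 776, 389 and 143, and without C57BL/6 400-1 and Balb/c 400-2, an alternative chosen after seeing the data, the difference between sizes gave 8. Without single arrays the ranges were 4345 to 7185, 1435 to 3597, 469 to 4275, 368 to 2288 and 0 to 169. At 0.001 the methods' t-test called 422 with the block and 0 in pools of 100, 0 in pools of 400 and 0 in both sizes, and limma 67 in both sizes. Groups without overlap in both sizes gave 3223 genes. Values as deposited, which raise the median gene by 0.25 (0.07 when centred), gave 4376 higher and 2455 lower with the block, against 3167 and 3013. The cause of these shifts was not tested. With the brightest probe set and the arrays centred anew, Atpif1 (0.42), Ldhb (0.89), Rbfox1 (0.79), Map2 (0.0334), Gria2 (1.44), Grik3 (0.43), Kcnma1 (0.26), H2-D1 (-2.0) and Rps6 (-0.0046) changed sign. No probe set of Map2 was higher under the main centring. Without shared probe sets Rps9 (1.83), Stx1a (0.35) and H2-D1 (-0.75) changed sign.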
